A study of Rattus norvegicus with 9 samples.

Results

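Expression of 9 receptor genes of the autonomic nervous system was followed in rat lung: the beta adrenergic receptors Adrb1 and Adrb3, the alpha adrenergic receptors Adra1a, Adra1b, Adra1d and Adra2a, and the muscarinic acetylcholine receptors Chrm1, Chrm2 and Chrm3. They were taken by name, as the probes annotated with exactly 1 of these 9 symbols, and make up 9 of the 14497 genes named on the array. Each is measured by 1 probe. Other receptors of these families are given where a list below holds them, and the remainder were not analysed here.

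The rats were Wistar animals on standard chow from weaning. In 3 of them metabolic syndrome (MetS) was induced by giving a 30% sucrose solution as the only drink for 24 weeks, and 4 controls drank water; all were fasted for 7 hours before death, and lung RNA was hybridised to Affymetrix arrays, per the labels' protocols. The MetS rats are labelled male, and the labels used here give no sex for the controls. MetS animal 1 and control animal 1 each have 2 arrays, labelled technical replicates, so that 9 arrays stand for 7 animals. Values are the authors' log2 expression values, on which a difference of 1 is a doubling of signal. In whole lung tissue, fewer cells of a type and less RNA per cell cannot be told apart.

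Adrenergic receptors respond to noradrenaline from sympathetic nerves and to circulating adrenaline. Beta receptors couple to Gs and raise cyclic AMP, alpha1 receptors couple to Gq and raise calcium, and alpha2 receptors couple to Gi and lower cyclic AMP. Muscarinic receptors respond to acetylcholine from parasympathetic nerves: the M1 and M3 receptors couple to Gq and the M2 receptor to Gi. In airways the M3 receptor drives smooth muscle contraction and mucus secretion, and M2 receptors on nerve endings limit acetylcholine release. In the heart, Adrb1 raises the rate and force of the beat and Chrm2 slows it.

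None of the 9 receptor genes differed between MetS and control lungs by limma with Benjamini-Hochberg adjustment over all 28826 probes. Their adjusted p lay between 0.52 and 0.90, and none reached an unadjusted p of 0.05 or had groups without overlap. Over all probes, 0% passed the adjusted threshold of 0.05, 13.7% had an unadjusted p under it and 11.7% had groups that did not overlap. The MetS mean was the higher one for 5 genes and the lower one for 4. Of the 6 adrenergic genes 5 had the higher mean in MetS, with a median difference of 0.07, and all 3 muscarinic genes had the lower one, with a median of -0.13. Over all named genes 62% had a difference above 0, 71.7% of the genes brighter than the 25th percentile of all probes did, and the median over all named genes was 0.04.

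**Figure D1:**
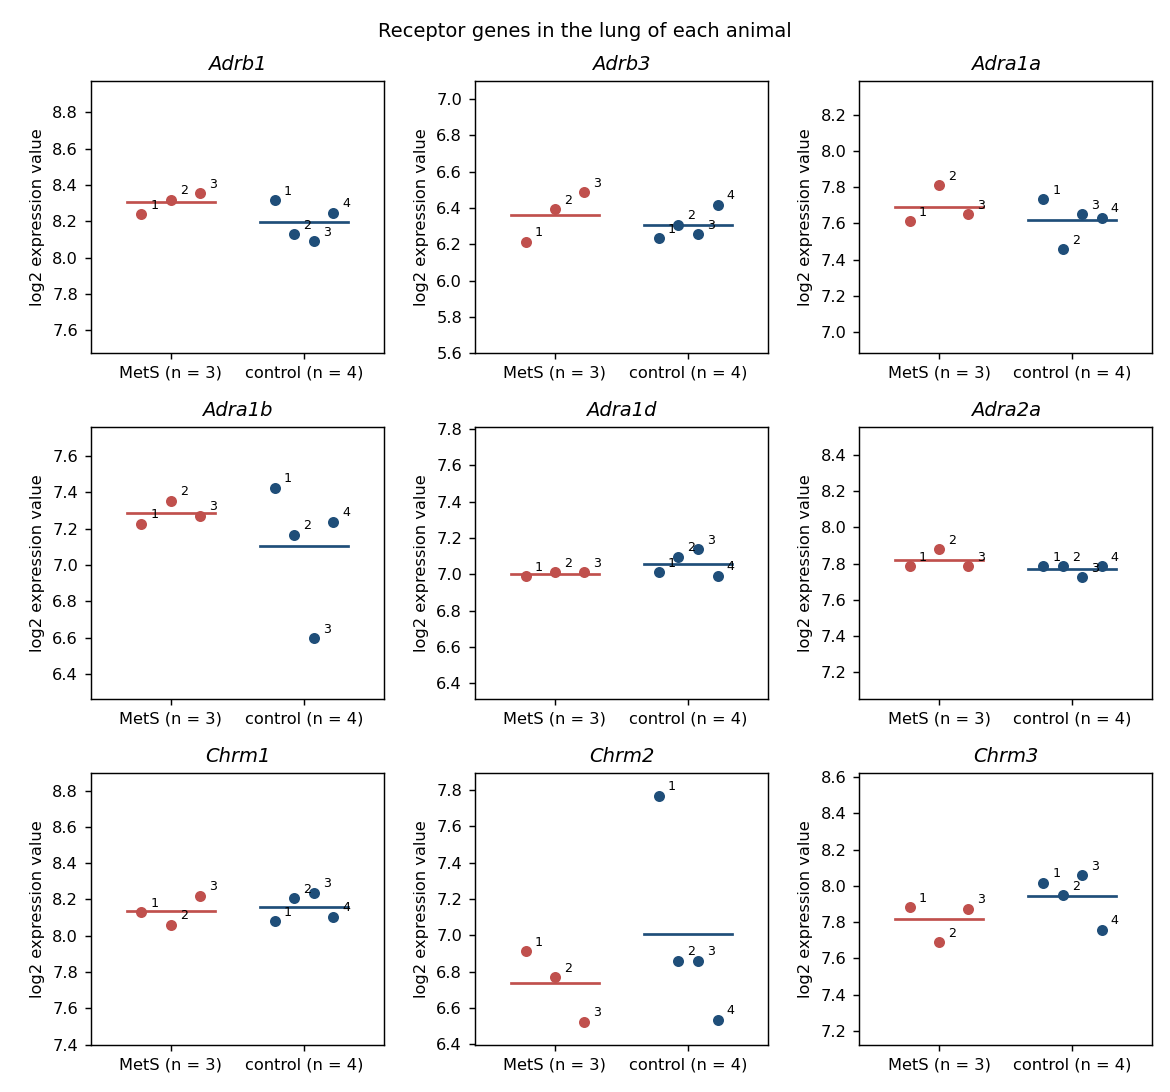
Log2 expression (vertical axis) of the 9 receptor genes in each numbered animal, MetS (n = 3) beside control (n = 4), with the mean of each group as a line; the 2 arrays of MetS 1 and of control 1 were averaged. The groups overlap for all 9 genes, Chrm2 stands high in control 1 at 7.77, and Adra1b stands low in control 3 at 6.60.

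Adrb1, the main cardiac beta receptor, stood at 8.24, 8.32 and 8.36 in MetS animals 1, 2 and 3 and at 8.32, 8.13, 8.09 and 8.25 in control animals 1 to 4. MetS 3 was the highest animal and control 3 the lowest, and the groups overlapped. The means were 8.30 ± 0.06 (SD, n = 3) and 8.20 ± 0.10 (SD, n = 4). The difference, 0.11 with a standard error of 0.08, had a 95% interval from -0.07 to 0.29 and an adjusted p of 0.52. As a fold, MetS over control was 1.08, with an interval from 0.953 to 1.22. When the spread of each array (the SD of its values over all probes) was a covariate the difference was 0.01, and without controls 2 and 3, the animals with the narrowest spread of values, it was 0.0215. That spread was 1.88 to 1.93 in MetS and 1.76 to 1.88 in control. As a covariate it is therefore partly tied to the group, here and below.

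Adrb3, the beta receptor known for lipolysis in fat, stood at 6.21, 6.39 and 6.49 in MetS and 6.23, 6.31, 6.26 and 6.42 in control. The lowest and the highest animal were both MetS animals. The difference was 0.06 (95% interval -0.14 to 0.26, adjusted p = 0.75). It was -0.0010 without MetS 3 and 0.25 when quantile normalized again. The Adrb3 mean lay at percentile 22.1 of all probe means, so Adrb3 was the only one of the 9 below the 25th percentile.

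The alpha1 receptors contract vascular smooth muscle. Adra1a stood at 7.61, 7.81 and 7.65 in MetS and 7.73, 7.46, 7.65 and 7.63 in control. The animals of both groups were interleaved, and the difference was 0.07 (95% interval -0.13 to 0.27, adjusted p = 0.70). A deposited value repeats here: 3 arrays, of MetS 3, control 3 and MetS 1, held the same 7.65. The other array of MetS 1 read 7.57.

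Adra1b stood at 7.23, 7.35 and 7.27 in MetS and 7.43, 7.17, 6.60 and 7.24 in control. The 3 MetS animals lay within the range of the controls, and control 3 stood below all others. Its distance to the next animal was 0.57, and 22 of 14497 genes had a gap as wide on that animal's low side. The group means were 7.28 ± 0.06 (SD, n = 3) and 7.11 ± 0.36 (SD, n = 4), a difference of 0.18 (95% interval -0.25 to 0.61, adjusted p = 0.66). Without control 3 the difference was 0.0068, with the SD of the values as a covariate it was -0.14, and without controls 2 and 3 it was -0.05. The direction for Adra1b thus turned with the last 2 of these settings.

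Adra1d stood at 6.99, 7.01 and 7.01 in MetS and 7.01, 7.10, 7.14 and 6.99 in control. Its MetS animals lay close together, with controls 2 and 3 above them. A repeated deposited value is part of that closeness: 3 arrays, of MetS 2, MetS 3 and MetS 1, held the same 7.01. The other array of MetS 1 read 6.96. The difference was -0.06 (95% interval -0.20 to 0.09, adjusted p = 0.67), and it was 0.0020 without controls 2 and 3 and 0.04 with the SD of the values as a covariate.

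Adra2a, which on nerve endings limits noradrenaline release, stood at 7.79, 7.88 and 7.79 in MetS and 7.79, 7.79, 7.73 and 7.79 in control. On 7 of the 9 arrays its deposited value was the same to 6 decimals, which was so for 69 of the 28826 probes on at least 7 arrays. MetS 2 lay above that value and control 3 below it. The difference of 0.05 (95% interval -0.09 to 0.18, adjusted p = 0.71) therefore rests on those 2 animals.

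Of the M1, M2 and M3 receptors, Chrm1 stood at 8.13, 8.06 and 8.22 in MetS and 8.08, 8.21, 8.24 and 8.10 in control. The difference was -0.02 (95% interval -0.19 to 0.14, adjusted p = 0.90). The 2 arrays of control 1 were 0.18 apart, and the range over all 7 animals was 0.18 as well. Chrm1 was the only one of the 9 genes whose range over animals did not exceed the distance between the 2 arrays of an animal.

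Chrm3 stood at 7.88, 7.69 and 7.87 in MetS and 8.02, 7.95, 8.06 and 7.76 in control. Of the controls, 3 lay above all MetS animals and control 4 lay among them. The means were 7.82 ± 0.11 (SD, n = 3) and 7.95 ± 0.13 (SD, n = 4), a difference of -0.13 with a 95% interval from -0.35 to 0.09 and an adjusted p of 0.53. With the SD of the values as a covariate the difference was -0.0085. Without control 4 it was -0.19, with an adjusted p of 0.23.

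Chrm2 stood at 6.91, 6.77 and 6.52 in MetS and at 7.77, 6.86, 6.86 and 6.54 in control. Control 1 stood above all other animals, and the remaining 3 controls lay within the range of the MetS animals. The means were 6.74 ± 0.20 (SD, n = 3) and 7.01 ± 0.53 (SD, n = 4). The difference, -0.27 with a standard error of 0.28, had a 95% interval from -0.92 to 0.38 and an adjusted p of 0.65. Without control 1 the difference was -0.017.

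**Figure D2:**
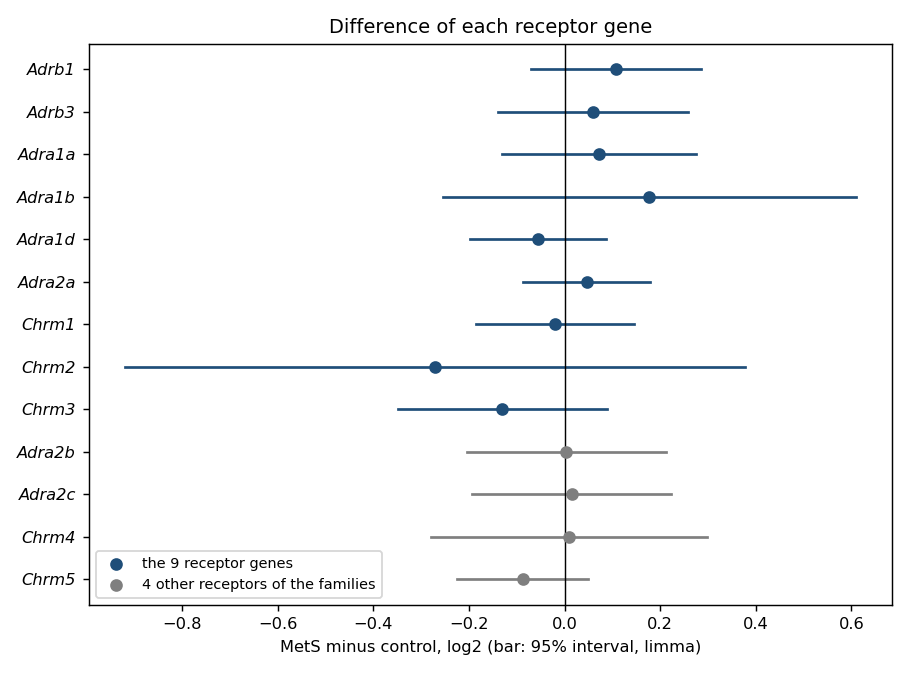
Difference in log2 expression, MetS minus control (horizontal axis), for each of the 9 receptor genes (blue) and 4 other receptors of the families (grey), with the 95% interval of limma as a bar. All intervals shown include 0, and the widest is that of Chrm2, from -0.92 to 0.38.

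Chrm2 had the widest range of the 9 genes over the animals, 1.24 on the log2 scale or 2.37-fold, and Adra1b followed with 0.83 or 1.78-fold. The SD of Chrm2 over the animals lay at the 92.6th percentile of all named genes. Both arrays of control 1 gave the high Chrm2 value, 7.77 and 7.76. The value lay 0.86 above the next animal, and 37 of 14497 genes had a gap as wide on the high side of control 1. The 10 widest of these gaps were those of Pp2d1, Myh6, Xirp2, Myl3, Tnni3, Tnnt2, Tnnc1, Actc1, Myh7 and Casq2, named after their values were seen. Myosins, troponins and cardiac actin among them form the contractile apparatus of heart muscle, and Casq2 its calcium store.

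Heart muscle genes were high in the same animal. Actc1, cardiac actin, stood at 12.06 in control 1 and 7.60 to 7.80 in the other controls. In MetS it stood at 10.72, 8.34 and 8.39. Myh6, the alpha myosin heavy chain of heart muscle, stood at 11.13 in control 1 against 6.92 to 7.34, and at 9.61, 7.53 and 7.21 in MetS. Thus MetS 1 was the second animal with high values of these genes, and its Chrm2 value of 6.91 was the second highest, just above the 6.86 of controls 2 and 3. Tnnt2 and Tnni3, troponins of heart muscle, and Ryr2, its calcium release channel, also had control 1 highest and MetS 1 second. The other 2 of the 7 listed heart genes, Myl7 and Nppa, did not follow this order. Of the smooth muscle list, Myh11 did not follow it either, but Des did. Des stood at 9.90 in control 1, 9.43 in MetS 1 and 8.27 to 9.24 in the other animals.

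The mean of the heart muscle list ranged from 7.21 to 8.65 in MetS and from 6.97 to 9.67 in control. With both control 1 and MetS 1 left out, the Chrm2 difference was -0.11, with an adjusted p of 0.78. The part of heart muscle in the Chrm2 values was not tested.

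**Figure D3:**
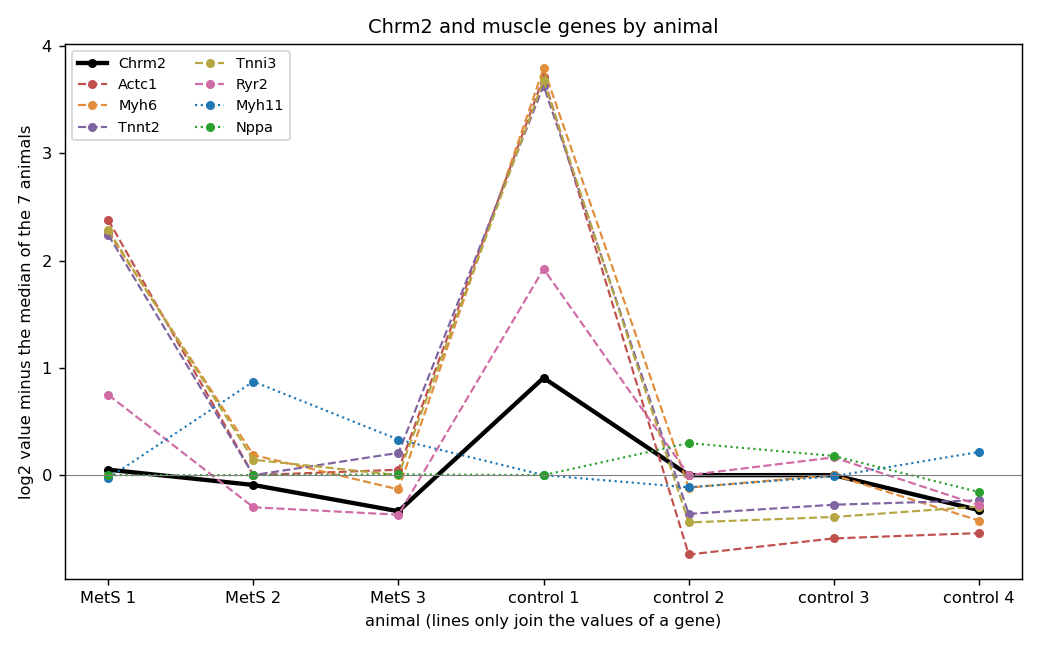
Log2 value minus the gene's median over the 7 animals (vertical axis) for Chrm2, the heart muscle genes Actc1, Myh6, Tnnt2, Tnni3, Ryr2 and Nppa and the smooth muscle gene Myh11, in each animal (horizontal axis); lines only join the values of a gene. Control 1 is the highest animal for Chrm2 (deposited value 7.77), Actc1 (12.06) and Myh6 (11.13), and MetS 1 comes next for each of them, while Nppa and Myh11 do not follow this order. Des, a gene of the smooth muscle list that is not drawn, does follow it.

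The promoters of Chrm2 and Adra1b are shown because these genes varied most over the animals. Each window holds 250 bases before and 50 after the gene start, from RefSeq on assembly GRCr8, and is written 5′ to 3′ on the gene's strand; the table held 7 of the 9 genes, without Adrb3 and Adra1a. The GC box GGGCGG, or its reverse complement, is in capitals. The Chrm2 window lies at chr4:65982200-65982499 on the plus strand and that of Adra1b at chr10:28814298-28814597 on the minus strand.
Chrm2: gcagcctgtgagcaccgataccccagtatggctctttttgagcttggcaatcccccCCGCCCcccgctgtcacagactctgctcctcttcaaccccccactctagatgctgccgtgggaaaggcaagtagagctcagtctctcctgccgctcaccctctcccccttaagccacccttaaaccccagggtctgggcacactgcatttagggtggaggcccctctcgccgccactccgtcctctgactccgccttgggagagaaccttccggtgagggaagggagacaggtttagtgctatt
Adra1b: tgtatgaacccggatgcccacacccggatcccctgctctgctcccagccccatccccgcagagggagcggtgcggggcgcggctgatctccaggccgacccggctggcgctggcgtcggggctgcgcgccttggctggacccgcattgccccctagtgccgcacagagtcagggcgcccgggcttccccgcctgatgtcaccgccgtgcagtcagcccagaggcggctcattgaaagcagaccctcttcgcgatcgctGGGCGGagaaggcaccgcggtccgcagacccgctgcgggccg
Each window held 1 GC box, which 33.1% of 33469 promoter windows of the same length also held. The letters AGATAA, read by factors of the GATA family, CAAGTG, read by NKX2-5, and AGGTGT, read by T-box factors, were also counted on both strands, since such factors act in heart muscle. They are held by 11.6%, 14.1% and 13.65% of all windows. Neither window held any of these. Among the 7 windows only that of Chrm3 held any, 1 match of CAAGTG, beside 2 GC boxes.

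No animal stood apart for all receptors. Control 3 was the lowest animal for Adrb1, Adra1b and Adra2a and the highest for Adra1d, Chrm1 and Chrm3, so that 6 of the 9 genes had an extreme there. Over all named genes control 3 was the lowest animal for 26.5% and the highest for 17.8%. It also had the narrowest spread of values on the array, an SD of 1.76 over all probes, beside 1.77 in control 2 and 1.85 to 1.93 in the other animals. The first principal component, the axis along which the animals varied most, held 64.6% of the variance. The SD of the animals correlated with it at a Pearson's r of 0.99 (sign arbitrary). Control 1 was the highest for Adra1b and Chrm2, MetS 2 was the highest for Adra1a and Adra2a and the lowest for Chrm1 and Chrm3, and control 4 was at neither end for any of the 9.

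**Figure D4:**
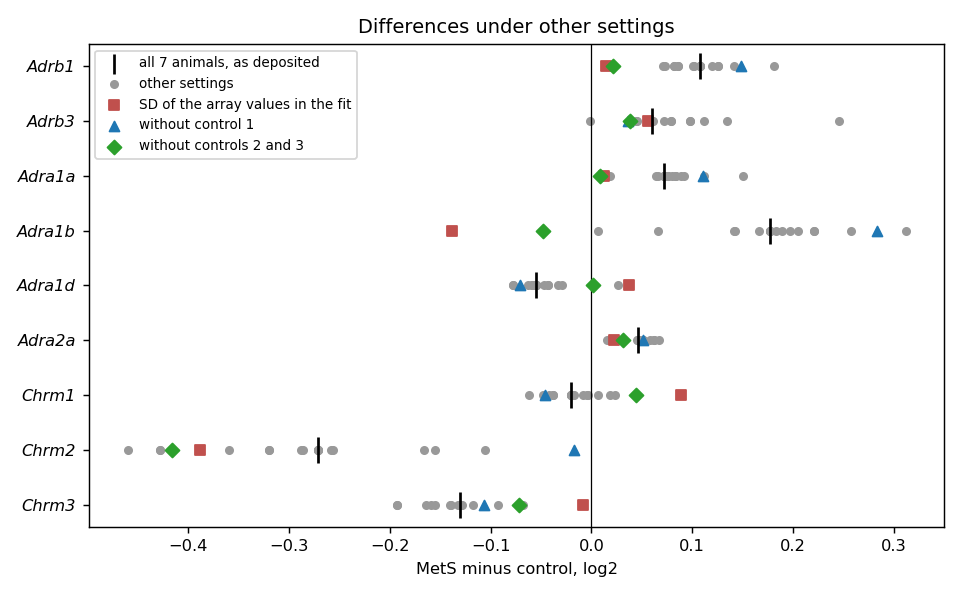
Difference in log2 expression, MetS minus control (horizontal axis), of each receptor gene under the main analysis (black line) and the other settings (points), with 3 settings marked by shape. Chrm2 moves from -0.27 to -0.017 without control 1, and Adra1b from 0.18 to -0.14 with the SD of the array values in the fit.

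By Pearson's r over the 7 animals, the named genes most like Chrm2 were Txlnb, at r = 0.989, and Pla2g12a, at 0.988. Txlnb, a muscle protein, stood at 7.33 in control 1 and between 6.09 and 6.60 elsewhere. Pla2g12a spanned only 8.57 to 8.75. In all, 56 genes had r above 0.9 with Chrm2. For Adra1b the closest were Mbd1 (0.996) and Usp19 (0.994), among 381 genes above 0.9, and control 3 was the lowest animal for both. For Chrm3 they were Lhx8 (0.979) and Asb10 (0.969), among 33. These coefficients describe 7 animals, which also differ in the spread of their array values.

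Of the other receptors of the same families, Adra2b, Adra2c and Chrm4 had differences of 0.0037, 0.01 and 0.0088, and of -0.0562, -0.0229 and -0.0992 without control 1. Chrm5, the M5 receptor, stood at 6.05, 6.17 and 6.14 in MetS and 6.24, 6.18, 6.19 and 6.23 in control. Its groups did not overlap, as for 11.7% of all probes, and its difference was -0.09 (95% interval -0.22 to 0.05, adjusted p = 0.50). The 2 arrays of control 1 read 6.34 and 6.14 for Chrm5, the lower one below MetS 2. They were 0.199 apart, more than the range of 0.191 over the 7 animals. When quantile normalized again, the Chrm5 difference was 0.11. The means of Chrm4 and Chrm5 lay at percentiles 24.9 and 19.4 of all probe means.

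Genes that carry the receptors' signals were read from lists by role, and none of their members passed the adjusted threshold, as 0% of all probes did. Of 14 genes of Gq signalling 11 had the higher mean in MetS, with a median difference of 0.09. Gnaq, the alpha subunit of Gq, stood at 10.76, 10.88 and 10.87 in MetS and 10.68, 10.58, 10.43 and 10.72 in control. All MetS animals lay above all controls, and the difference was 0.24 (95% interval 0.04 to 0.44, adjusted p = 0.33). With the SD of the values as a covariate it was 0.10, and without controls 2 and 3 it was 0.14. Prkca, protein kinase C alpha, had a difference of 0.20 (adjusted p = 0.40), also without overlap, which was 0.0064 with the SD and 0.054 without controls 2 and 3. Gnaq and Prkca were the 2 of the 14 genes without overlap, beside 11.7% of all probes. The list's median was -0.07 with the SD of the values as a covariate and -0.01 without controls 2 and 3. Over all 14497 named genes the median also moved with the setting. It was -0.0030 with the SD as a covariate (7080 genes higher) and 0.0099 without controls 2 and 3 (7941 higher). When quantile normalized again it was 0.041 (9285 higher).

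On the cyclic AMP side, 18 of 20 measured genes of Gs signalling had the higher mean in MetS, with a median of 0.10. With the SD of the values as a covariate 9 were higher and 11 lower, with a median of -0.02. Under that setting 7080 of all 14497 named genes were higher. Akap12, an anchoring protein of protein kinase A, had a difference of 0.20 (adjusted p = 0.34), and Adcy8, an adenylyl cyclase, one of -0.37 (adjusted p = 0.35). Both had groups without overlap, as had 4 of the 20 genes and 11.7% of all probes. Single arrays did cross: 1 array of control 1 read 8.96 for Akap12, above MetS 2 at 8.92. For Adcy8, 1 array of MetS 1 read 5.83, above control 4 at 5.81. The Adcy8 difference was -0.044 with the SD as a covariate and -0.15 both when quantile normalized again and without controls 2 and 3. Adcy8 was dim, with its mean at percentile 15.4 of all probe means.

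Of 10 cyclic AMP phosphodiesterases, which break cyclic AMP down, 8 had the higher mean in MetS, with a median of 0.11 and one of -0.01 with the SD of the values as a covariate. Pde7b stood at 9.44, 9.38 and 9.66 in MetS and 9.26, 9.01, 9.05 and 9.20 in control. No MetS animal lay below a control. Among the 10 genes only Pde7b had groups without overlap, beside 11.7% of all probes. The difference was 0.36, or 1.29-fold, with a 95% interval from 0.13 to 0.59. By limma its unadjusted p was 0.0069, where 13.7% of probes had one under 0.05, and its adjusted p was 0.32. Benjamini-Hochberg adjustment gave other probes this same value and none a lower one. The adjusted p therefore does not rank Pde7b ahead of those probes. Pde8a had a difference of 0.13 (adjusted p = 0.40), with overlap, and one of 0.062 both when quantile normalized again and with the SD as a covariate.

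Among 9 genes of Gi signalling and its potassium channels, 6 had the higher mean in MetS, with a median of 0.05. Gnao1, a Gi family alpha subunit of nerve cells, had a difference of 0.34 (adjusted p = 0.36) and Gnaz one of 0.13 (adjusted p = 0.42). With the SD of the values as a covariate these were 0.15 and 0.22. Receptor kinases, arrestins and RGS proteins end receptor signalling, and 8 of 12 had the higher mean, with a median of 0.04. That median was -0.01 when quantile normalized again, -0.0046 with the SD of the values as a covariate and -0.03 without controls 2 and 3. Grk4 and Grk5, receptor kinases, had differences of 0.27 and 0.18, with adjusted p of 0.39 and 0.42, and of 0.089 and 0.0315 with the SD as a covariate.

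**Figure D5:**
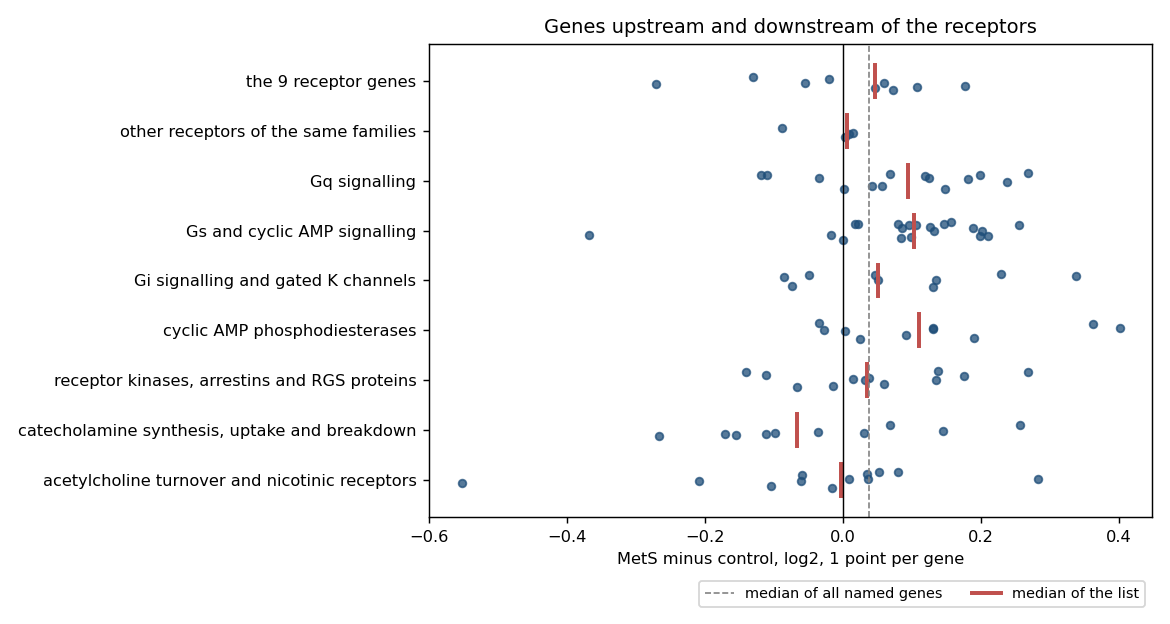
Difference in log2 expression, MetS minus control (horizontal axis), with 1 point per gene, for the receptors and for lists of genes up- and downstream of them. The red line is the median of each list and the dashed line that of all named genes, 0.04; no gene shown passed the adjusted threshold.

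Genes that make, take up or break down the transmitters came on both sides of 0. Of 10 measured catecholamine genes 4 had the higher mean in MetS, with a median of -0.07 that was 0.09 when quantile normalized again. Maoa, which breaks down noradrenaline, had a difference of 0.26 and Slc22a3, a transporter of catecholamines outside neurons, one of -0.17, with adjusted p of 0.38 and 0.43. With the SD as a covariate these were 0.064 and -0.089. For Slc22a3 the same deposited value, 6.68, was held by 4 arrays, of MetS 2, MetS 3, control 2 and control 4. The 2 arrays of control 1 were 0.32 apart for Slc22a3. Its difference was -0.036 when quantile normalized again. Of 12 measured acetylcholine genes 6 had the higher mean in MetS, 9 when quantile normalized again and 10 with the SD of the values as a covariate. Of all 14497 named genes, 9285 and 7080 were higher under the last 2 settings. Slc5a7, the choline transporter of cholinergic nerve endings, stood at 5.05, 5.07 and 5.42 in MetS and 5.59, 6.20, 5.99 and 5.13 in control. Control 4 lay among the MetS animals, and the difference of -0.55 had an adjusted p of 0.38. Slc5a7 was dim, with its mean at percentile 10.6 of all probe means. Its 2 arrays were 0.26 apart in MetS 1 and 0.28 apart in control 1. The direction of Slc5a7 turned with the SD of the values as a covariate (0.11); its difference was -0.19 without controls 2 and 3 and -0.75 without control 4. Chrna3, the nicotinic subunit of autonomic ganglia, had a difference of -0.21 (adjusted p = 0.50), which was 0.14 with the SD as a covariate, -0.0042 without controls 2 and 3 and -0.040 when quantile normalized again. The Chrna3 mean lay at percentile 23.4 of all probe means.

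The tissue label was read against marker genes. Means of alveolar type 2 cell genes such as Sftpc and Sftpa1 ranged from 12.57 to 12.64 in MetS and from 12.53 to 12.61 in control, and those of type 1 cell genes such as Ager and Hopx from 12.55 to 12.68 and from 12.57 to 12.64. Smooth muscle carries M2, M3 and alpha1 receptors. The mean of its 8 genes, such as Acta2 and Myh11, ranged from 8.66 to 9.07 in MetS and from 8.39 to 8.73 in control. Only MetS 2 stood at 9.07. MetS 1 and MetS 3, both at 8.66, lay below control 1 (8.70) and control 4 (8.73). These means include Des, which followed the order of the heart muscle genes. Des stood at 9.90 in control 1, 9.43 in MetS 1, 8.96 in control 4 and 8.70 in MetS 3. Its part in the order of the means was not tested. Of the 8 genes, 7 had the higher mean in MetS, beside 62% of all named genes and 71.7% of the brighter ones. With the SD of the values as a covariate 6 of the 8 did, beside 7080 of 14497 named genes. The Myh11 difference was 0.37, and 0.13 without MetS 2. Genes of neurons, such as Th and Dbh, ranged from 6.68 to 6.88 in MetS and from 6.71 to 6.86 in control.

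For the other lists given here the MetS and control ranges overlapped. Airway cell genes, such as Scgb1a1 and Scgb3a2, ranged from 8.85 to 9.15 in MetS and from 8.75 to 9.02 in control, and endothelial genes, such as Pecam1 and Cdh5, from 10.82 to 11.17 and from 10.93 to 11.18. Fibroblast and pericyte genes, such as Col1a1 and Pdgfra, ranged from 9.22 to 9.37 and from 9.23 to 9.28. Fat cell genes, such as Adipoq and Lep, ranged from 6.99 to 7.07 and from 7.03 to 7.08. Macrophage genes, such as Marco and Cd68, ranged from 9.27 to 9.66 and from 9.49 to 9.60, and lymphocyte genes, such as Cd3e and Cd3d, from 8.57 to 9.28 and from 8.70 to 9.01. Whether the makeup of the tissue moved the receptor values was not tested.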

How the data were processed

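Lung RNA with an integrity number of at least 6 was labelled from 50 ng for the arrays, as the labels' protocols state. The authors' deposited values are log2 expression values for 9 arrays and 28826 probes; the submitters' processing notes name R 2.11.0, RMA and limma. No genome build was given in the sources used here. Array medians lay between 7.64 and 7.69 and array SDs between 1.76 and 1.94. Why the SDs differ was not stated. The number of arrays limits the precision.

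The 2 arrays of an animal were averaged, so n counts animals. The step at which technical replicates were split was not stated. MetS was compared with control over all probes with limma 3.58.1 (lmFit, eBayes) in R 4.3.3, with Benjamini-Hochberg adjustment and a threshold of 0.05, on 7.28 moderated degrees of freedom. Tables and figures were made with Python 3.11.15, pandas 2.3.3, numpy 2.4.6 and matplotlib 3.10.9. The fit was tested on simulated data.

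Of the probes, 15209 carry 1 gene symbol in the platform annotation, 306 several and 13311 none; 15184 matched a RefSeq gene, and the brightest probe stood for a gene. Named were the 9 receptors, other receptors of the families, the 2 genes with the smallest unadjusted p of each signalling list, the first 2 genes of each marker list (1 list is not reported here) and the 2 genes most like Chrm2, Adra1b and Chrm3, the receptors with the largest SD. Other heart muscle genes, and Des of the smooth muscle list, were named after their values were seen. The receptors and lists were chosen with earlier results of these data known.

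Alternatives covered the technical arrays, normalization, filters, moderation, array weights, array spread, animals left out and the replicate number as a block.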

Additional observations from a re-analysis of the deposited data

Results flagged for a closer look

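Among the 4 controls, 1 animal stood far from the other 3 for 7 of 57 genes looked at, of which 1 is among the 9 receptors. A gap of this size comes by chance in about 1 in 20 groups of 4. The count is no test, since the heart muscle genes vary together and the lists were chosen with earlier results known. Some of these genes, Tnnt2 and Tnni3 among them, were also named after their values were seen. Adra2a stood at 7.73 in control 3 and at 7.79 in each of the other controls, a gap made by a value that repeats to 6 decimals on 7 arrays. Actc1 stood at 12.06 in control 1 against 7.60 to 7.80, Myh6 at 11.13 against 6.92 to 7.34, Tnnt2 at 11.26 against 7.27 to 7.39 and Tnni3 at 9.97 against 5.85 to 5.99. In the same animal Th, the first enzyme of catecholamine synthesis, stood at 6.13 against 6.50 to 6.53. The 2 arrays of control 1 read 6.03 and 6.23 for Th, whose mean lay at percentile 23.1 of all probe means. Scgb3a2, a gene of airway secretory cells, stood at 10.46 in control 4 against 11.03 to 11.13.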

How the results depend on the processing

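Under all 20 other settings none of the receptor genes tested passed the adjusted threshold of limma, and the median difference of the 9 lay between -0.0010 and 0.067. Adrb3 was not tested where dim probes were left out. Adrb1, Adra1a, Adra2a, Chrm2 and Chrm3 kept their direction in every setting. Without 1 animal at a time, Adrb3 ranged from -0.0010 to 0.14 and Chrm1 from -0.062 to 0.018. The highest Adrb3 difference over the settings was 0.25, when quantile normalized again. Adra1b was -0.14 with the SD of the values as a covariate and -0.048 without controls 2 and 3. Adra1d was 0.027 when quantile normalized again, 0.0375 with the SD and 0.0020 without controls 2 and 3; Chrm1 was 0.0235 with the first array of each animal, 0.089 with the SD and 0.044 without controls 2 and 3. The cause was not tested.

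The replicate numbers were not taken to pair the animals, because no label says that they mark a shared litter, batch or day. Deviations of same-numbered animals from their group means correlated at 0.27, -0.12 and 0.34. Those of differently numbered animals correlated at -0.42 to 0.39. With 3 and 4 animals in the groups, these values cannot show whether the animals were paired. With the replicate block, without control 4, 2017 probes passed the adjusted threshold and no receptor gene did, the smallest adjusted p of the 9 being 0.205. Chrm2 and Chrm3 had an unadjusted p under 0.05 there, as 23.4% of probes did, and Chrm3 also without control 4 and without the block, as 21.4% of probes did. With all 7 animals and no block, 0 probes passed the adjusted threshold and 3959 had an unadjusted p under 0.05. Leaving out both control 1 and MetS 1 was chosen after seeing the data.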
